A study of Homo sapiens with 39 samples.

Results

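U2AF1 sites in 3' untranslated regions (3'UTRs) were taken as the entries that the authors' annotation placed in a 3'UTR in 3 lists of PAR-CLIP clusters. They numbered 14409 of the 148336 clusters in all, and they fell in 4519 named genes. PAR-CLIP crosslinks a protein to RNA that carries a modified uridine, so that contacts are read as T-to-C conversions, and a cluster is a run of overlapping reads with such conversions. The lists came from U2AF1 with a FLAG-HA tag, expressed in the HEK 293 derivative Flp-In-293: the wild-type (WT) protein in cytoplasm, the S34F mutant protein in cytoplasm, and the WT protein in chromatin. The 2 replicates of each were pooled by the authors, so no test between lists was possible. The genes were followed in human bronchial epithelial cells (HBEC) of 3 lines, labelled WT, S34F and FS (Frame Shift) for U2AF1, without a statement of which allele carries the frame shift or whether a line is 1 clone. RNA immunoprecipitation of U2AF1 gave 9 libraries, with an antibody precipitate (IP), a precipitate with control immunoglobulin (IgG) and RNA of the cytosol (Cytosol) from each line. Polysome gradients gave 24 libraries, 8 per line, from monosomes, from fractions of 2 to 7 ribosomes and from a pooled fraction of 8-10 ribosomes. The tagged protein was thus measured in a kidney-derived line and the RNA in an airway line.

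U2AF1 is the small subunit of the U2AF heterodimer, which recognizes the end of an intron during splicing. Its partner U2AF2 binds the run of pyrimidines before the 3' splice site, and U2AF1 contacts the AG dinucleotide at the intron's end. The S34F substitution, found repeatedly in myeloid malignancies and lung adenocarcinoma, is known for altered use of 3' splice sites according to the base just before that AG. A 3'UTR is the part of an mRNA after the stop codon, bound by proteins and microRNAs that set mRNA stability, localization and translation.

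Of the 20 3'UTR sites with the most reads in each list, 12 (WT cytoplasm), 15 (S34F cytoplasm) and 12 (WT chromatin) carried letters like those at the end of an intron. The following stretches were picked for such letters among the sites with most reads and the sites seen in all 3 lists. They are written 5' to 3' on the transcript's strand, and capitals mark an AG that follows a pyrimidine run, together with the base before it. Positions are as the lists give them, in a genome build that is not stated in the sources used here.
SP3, WT cytoplasm, chr2:174773628-174773657, minus strand: ttaagtcttttttttttttgtcTAGgtagt
TMEM183A, WT cytoplasm, chr1:202992726-202992755, plus strand: tttcttttggCAGttttggattttaggtat
EIF5, WT cytoplasm, chr14:103808471-103808500, plus strand: cctttttcttttttttttcttcCAGaatgt
ZNF507, S34F cytoplasm, chr19:32877673-32877702, plus strand: tagaataatttattttgctttaCAGgagtt
PANK3, S34F cytoplasm, chr5:167977728-167977757, minus strand: ataactaaagtaaattttttttCAGgtatt
C5orf24, S34F cytoplasm, chr5:134195187-134195216, plus strand: ttttcagaatttcttttttccaCAGgtaat
SAMD4B, S34F cytoplasm, chr19:39875157-39875186, plus strand: aagcccctcccttttctttCAGcctttttc
SRSF1, WT chromatin, chr17:56082387-56082416, minus strand: gtgtctttctgTAGacatatctgaagagat
SSU72, WT chromatin, chr1:1477353-1477382, minus strand: atttgtttttacttaCAGgtgttctgctgg
OGT, all 3 lists, S34F cytoplasm stretch shown, chrX:70795548-70795577, plus strand: attgtaacaggcttttatttcCAGgtaata
DDX52, all 3 lists, WT cytoplasm stretch shown, chr17:35973371-35973400, minus strand: tctcttacagcttatctttcctTAGgttga

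Not all sites seen in all 3 lists held such an AG. Those in EIF4G2 and another SRSF1 site held it in no list, and those in TOMM20 and GLUL in S34F cytoplasm alone. A site in ATP5B held it in WT cytoplasm and WT chromatin, and a second OGT site in all 3 lists. The chromatin site with most reads, in HNRNPA1 with 4901 reads, had no such AG. Other sites with many reads had none either, and 4 of them are shown for contrast.
ATAD5, WT cytoplasm, chr17:29222300-29222329, plus strand: gttggtatacaatctcccactgctaaattt
RPL37A, WT cytoplasm, chr2:217366145-217366174, plus strand: gagacatcactggcctataataaatgggtt
HNRNPK, WT cytoplasm, chr9:86584086-86584110, minus strand: agggttgggggggggaagggcgtgc
HNRNPA2B1, WT chromatin, chr7:26231246-26231275, minus strand: tttagatcttttagatgctgcttcttcaat

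The SP3 site, in the gene of a zinc finger transcription factor, held 387 reads with a T-to-C fraction of 48.6%. The EIF5 site, in the gene of an initiation factor that stimulates GTP hydrolysis by eIF2, held 226 reads and 20.8%. In S34F cytoplasm the ZNF507 site held 1236 reads, the PANK3 site 970 reads and the C5orf24 site 643 reads. PANK3 makes pantothenate kinase, the rate-limiting enzyme of coenzyme A synthesis, and its site lay outside the gene span of the RNA immunoprecipitation tables although the authors assigned it to that 3'UTR. The OGT site, in the gene of O-GlcNAc transferase, held 91 reads in WT cytoplasm, 572 in S34F cytoplasm and 106 in WT chromatin. The DDX52 site, in the gene of an RNA helicase, held 96, 66 and 48 reads in the same order. No sample title mentions molecular identifiers, and the distinct reads that the lists count were fewer than the reads. In the same order the OGT site had 29, 241 and 14 distinct reads, and the DDX52 site 29, 41 and 13. The intervals of shares given here are over clusters and hold counting error alone.

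The sites without such an AG differed among themselves. The ATAD5 site held the most reads of any 3'UTR site in both cytoplasmic lists, 1526 in WT and 1729 in S34F, and 2.26% and 2.08% of all 3'UTR reads. Its sequence shared a run of 20 bases with clusters that the authors annotated as the Y RNA pseudogenes RNY4P23 and RNY4P5, so its reads cannot be assigned to ATAD5 with certainty. No other 3'UTR site shared such a run. The RPL37A and HNRNPK sites had T-to-C fractions of 5.19% and 4.60%, against a median of 80.0% over the 3'UTR sites of WT cytoplasm. Sites with many reads had lower fractions, with a median of 25.8% over the 20 with most reads in that list.

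3'UTR sites made up 4020 of 26613 clusters in WT cytoplasm, or 15.1% (exact Clopper-Pearson 95% interval 14.7 to 15.5%). In S34F cytoplasm they were 4979 of 28828, or 17.3% (16.8 to 17.7%), and in WT chromatin 5410 of 92895, or 5.82% (5.67 to 5.98%). They took 12.8%, 12.6% and 4.17% of the reads in the same order. The share of clusters in 3'UTRs was thus higher in both cytoplasmic lists than in the chromatin list, and the read share of the WT and S34F cytoplasmic lists was close. Each list is 1 pooled sample, so these intervals say nothing of the spread between replicates. A median site held 11, 10 and 25 reads in WT cytoplasm, S34F cytoplasm and WT chromatin and was 28, 27 and 26 bases long. T made up 33.5%, 33.1% and 31.8% of their bases, against 23.2%, 24.2% and 24.8% in coding clusters.

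In their letters the 3'UTR sites stood closer to intron clusters than to coding clusters. A run of 5 T was found in 17.7% of the 3'UTR sites of WT cytoplasm (16.5 to 18.9%), against 2.58% of coding clusters (2.26 to 2.94%) and 18.8% of intron clusters (17.9 to 19.7%). An AG after a pyrimidine run, defined as an AG with at least 8 C or T among the 10 bases that end just before the base preceding it, was found in 17.3% of them (16.2 to 18.5%). Coding clusters of WT cytoplasm held it in 7.48%, intron clusters in 20.5%, and clusters that span an intron and coding sequence, where 3' splice sites lie, in 41.4%. The S34F cytoplasmic and WT chromatin lists had the AG after a pyrimidine run in 17.6% and 16.4% of 3'UTR sites and in 7.27% and 10.3% of coding clusters. Longer clusters can hold more motifs, and among clusters of 20 to 30 bases the shares were 13.8%, 12.8% and 13.1% in 3'UTRs and 5.98%, 4.67% and 7.04% in coding sequence. In WT cytoplasm T made up 33.5% of the bases of 3'UTR sites, 34.8% of intron clusters and 23.2% of coding clusters. The part of base composition in these motif shares was not tested. Only the given strand of each cluster was searched, and a match is a description of letters, not a used splice site.

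**Figure D1:**
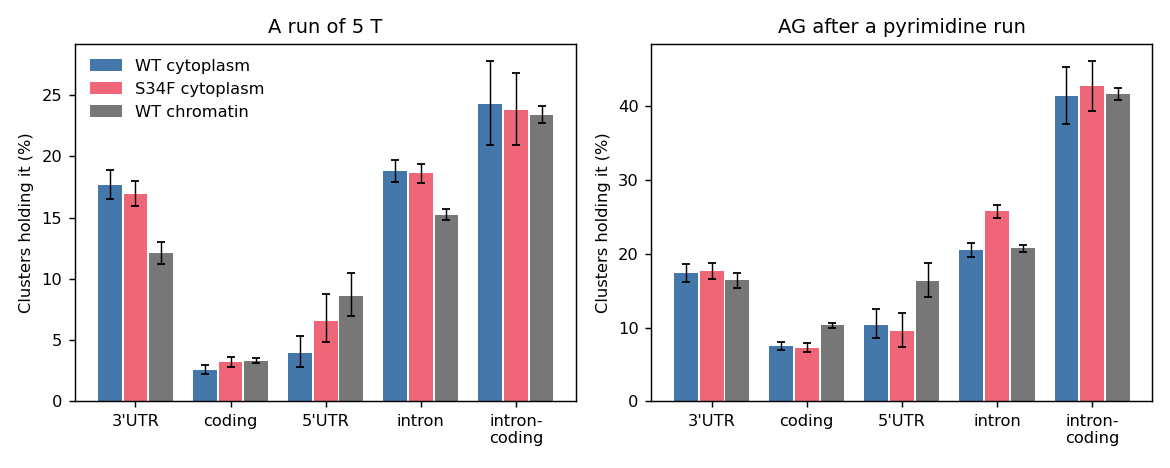
Percent of clusters that hold a run of 5 T (left) or an AG after a pyrimidine run (right), by annotation class and list, with exact 95% intervals as error bars. In both panels the 3'UTR bars of every list stand above the coding bars, and on the right they stay under the 41.4% of the WT cytoplasmic intron-coding clusters.

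Sites with this AG were more frequent among those with many reads. In WT cytoplasm, 43 of the 100 3'UTR sites with most reads held the AG after a pyrimidine run, against 17.3% of all its 3'UTR sites. In S34F cytoplasm the number was 53 of 100 and in WT chromatin 47 of 100. Sites with the AG had a median of 14, 12 and 31 reads in WT cytoplasm, S34F cytoplasm and WT chromatin, against 10, 9 and 24 reads for sites without. The sites with most reads were also longer, with a median of 44.5, 45.5 and 50 bases among the top 100. The part of length in these counts was not tested.

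The base before that AG differed between the WT and S34F lists. In WT cytoplasm it was C in 37.2% (33.6 to 40.9%) and T in 27.7% (24.4 to 31.2%) of 697 3'UTR sites. In S34F cytoplasm it was C in 44.4% (41.1 to 47.8%) and T in 20.1% (17.4 to 22.9%) of 878 sites. Intron clusters differed in the same direction and by more, with T at 27.3% in WT and 15.4% in S34F cytoplasm and C at 47.6% and 61.4%. Coding clusters did not show the lower T, with T at 7.11% and 8.81% and C at 41.1% and 43.0%. Among 3'UTR sites with at least 10 reads the intervals overlapped. T was there at 27.9% (23.8 to 32.2%) and 20.7% (17.4 to 24.4%), and C at 41.3% (36.7 to 45.9%) and 46.7% (42.5 to 51.0%). Among 3'UTR sites of 20 to 30 bases T was at 28.5% and 16.1% and C at 35.3% and 48.7%. The 3'UTR sites of the WT protein in chromatin had T in 19.4% (16.9 to 22.2%) of 886 sites, a value within the interval of S34F cytoplasm, so a low share of T was not particular to the mutant list. Their share of C, 38.0% (34.8 to 41.3%), was instead close to that of WT cytoplasm and below the 44.4% of S34F cytoplasm. Among sites of the cytoplasmic lists that overlapped each other, T stood at 29.4% (21.6 to 38.1%) of 126 in WT and at 29.7% (21.9 to 38.4%) of 128 in S34F. In these shared sites C was at 41.3% (32.6 to 50.4%) in WT and 37.5% (29.1 to 46.5%) in S34F, with wide intervals. Overlapping sites cover part of the same stretch and can hold the same AG. Their shares are thus tied between the lists and cannot show whether the base before the AG differs.

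**Figure D2:**
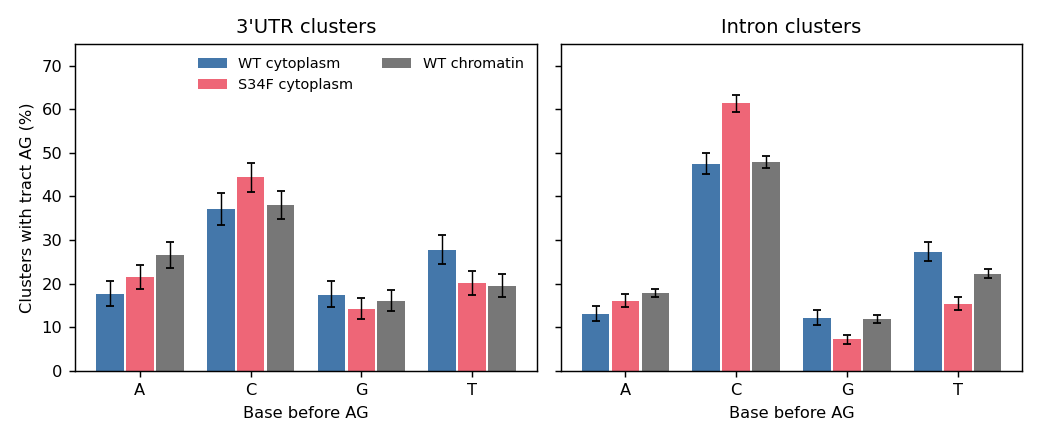
Percent of clusters with an AG after a pyrimidine run (tract AG) that have A, C, G or T just before it, in 3'UTR clusters (left) and intron clusters (right), with exact 95% intervals. T is lower and C higher in S34F than in WT cytoplasm in both panels, and the WT chromatin bar for T in 3'UTRs (19.4%) is near the S34F bar (20.1%). The WT chromatin bar for C in 3'UTRs (38.0%) is near the WT cytoplasm bar (37.2%).

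The bases after the AG also had a pattern, visible in the SP3, PANK3, C5orf24, SSU72, OGT and DDX52 stretches, where gt follows. Of the 3'UTR sites long enough to show it, GT followed the AG in 98 of 646 in WT cytoplasm, or 15.2% (12.5 to 18.2%). The values were 16.1% (13.7 to 18.8%) in S34F cytoplasm and 9.91% (7.91 to 12.2%) in WT chromatin. Coding clusters had GT after such an AG in 4.58%, 5.57% and 4.36%, and intron clusters in 25.1%, 24.3% and 16.5%. AG followed by GT joins the letters of an intron's end to those of an intron's start. This count was made after the printed stretches had been seen.

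Few sites were found in more than 1 list. Of the WT cytoplasmic 3'UTR sites, 501 (12.5%) overlapped an S34F cytoplasmic 3'UTR site by at least 1 base, and 337 (8.38%) overlapped a WT chromatin 3'UTR site. Of the S34F sites, 505 (10.1%) overlapped a WT cytoplasmic site and 455 (9.14%) a chromatin site. Coding clusters of the cytoplasmic lists overlapped chromatin coding clusters more often, in 23.5% (WT) and 28.2% (S34F), and the chromatin list holds 30285 coding clusters but 5410 in 3'UTRs. Low overlap between the cytoplasmic lists was not particular to 3'UTRs. Of WT coding, 5'UTR, intron-coding and intron clusters, 10.60%, 9.88%, 9.83% and 5.92% overlapped an S34F cluster of their class. Of the S34F ones, 11.99%, 14.08%, 7.41% and 4.60% overlapped a WT cytoplasmic cluster, in the same order. The 3'UTR share was thus the highest of these classes in WT but not in S34F cytoplasm. Shared sites held the AG after a pyrimidine run more often than the others, at 25.2% against 16.2% of WT cytoplasmic sites, and had a median of 16 against 10 reads. Sites of WT cytoplasm that overlapped a site in both other lists numbered 68, in 66 genes, and 22 of them held that AG. By gene the overlap was larger: 1193 genes had a 3'UTR site in both cytoplasmic lists, 53.7% of the 2223 genes in WT and 51.9% of the 2299 in S34F.

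Within genes, most 3'UTR sites lay far from the transcript's end. The median distance to the gene end in the immunoprecipitation tables was 1144 bases in WT cytoplasm, 1288 in S34F cytoplasm and 957 in WT chromatin. Sites within 50 bases of the end made up 2.15%, 2.12% and 4.78% of those inside the gene's span. Of these, 18.3%, 18.0% and 37.3% held the polyadenylation signal AATAAA or its variant ATTAAA, against 1.53%, 1.82% and 2.71% of the sites farther away. The RPL37A site, 14 bases from the end, is an example, with aataaa in the stretch shown above. Of the sites whose gene is in those tables, 95.5%, 95.4% and 95.2% lay inside the gene's span there, so clusters and tables share coordinates.

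A typical gene held 1 site per list, and a few held many. In WT cytoplasm 61.8% of the 2223 genes had 1 site, and 127 genes with at least 5 sites held 20.5% of the sites. KLHL15, which encodes an adaptor of a cullin ubiquitin ligase, had 14 sites in WT cytoplasm, 20 in S34F cytoplasm and 2 in WT chromatin, with 748, 1067 and 15 reads. NUFIP2, an RNA-binding protein gene, had 16, 20 and 8 sites, and NUCKS1, which encodes a nuclear chromatin protein, had 14, 19 and 0. In chromatin ZNF207, a zinc finger gene, had 19 sites and 847 reads. HNRNPA2B1, which encodes a nuclear pre-mRNA-binding protein, had 18 sites and 3861 reads in chromatin, against 2 sites with 167 reads in WT cytoplasm. Cytoplasmic and chromatin lists thus had different leading genes.

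Lists of genes for RNA-binding proteins differed in how many members had a site. Of 37 SR and hnRNP protein genes, which act in splice site choice and mRNA packaging, 25 had a 3'UTR site in WT cytoplasm, 30 in S34F cytoplasm and 31 in WT chromatin. Among those with any cluster this was 69.4%, 88.2% and 86.1%, where the share over all genes with any cluster was 29.4%, 33.2% and 28.1%. HNRNPA1 held 4, 13 and 13 sites, with 188, 507 and 6539 reads, and SRSF1 held 6, 4 and 10 sites with 206, 325 and 2446 reads. Of 56 genes for 3'UTR-binding and mRNA decay proteins, 28, 27 and 34 had a site, or 56.0%, 54.0% and 65.4% of those with any cluster, among them CELF1 with 4, 5 and 6 sites. Of 45 core splicing genes 16, 12 and 18 had a site (47.1% and 36.4% of those with any cluster in the cytoplasmic lists, and 18 of 36 in chromatin), and of 23 cleavage and polyadenylation genes 7, 11 and 12 (36.8%, 55.0% and 63.2%). Of 88 ribosomal protein genes 18, 15 and 20 had a site, or 29.5%, 26.8% and 27.8% of those with any cluster. Of 36 cell cycle genes, 20, 21 and 18 had a site (60.6%, 65.6% and 54.5% of those with any cluster), with the survivin gene BIRC5 at 4, 8 and 3. Expression in Flp-In-293 cells and 3'UTR length also differ between these groups, and their part was not tested. U2AF1 had no 3'UTR site in any list, U2AF2 had 1, 1 and 4, and NPM1, which encodes nucleophosmin, had 1 site with 5 reads in S34F cytoplasm and none in the other lists.

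In HBEC the following comparisons used the 3329 genes with a 3'UTR site in either cytoplasmic list. Libraries held 2582141 to 29769968 counts in the immunoprecipitation and 2440145 to 13367575 in the gradients, where a count of 0 allows up to 0.101 to 1.16 and 0.224 to 1.23 CPM (counts scaled to an equal total in all libraries). Of 13 airway basal cell markers 11 exceeded 1 CPM in every Cytosol library, with a summed level of 24012 to 33143 CPM. None of 7 ciliated and none of 6 secretory markers did so, and RSPH1, TPPP3, SCGB1A1 and BPIFA1 were listed at 0 in every Cytosol library. Of 7 fibroblast and 6 leukocyte markers 1 each did, with summed levels of 7.65 to 11.05 and 54.4 to 68.7 CPM, while COL3A1, DCN, PDGFRB, PTPRC and CD3E were listed at 0 there. Of the 3329 genes, 3039 passed the filter on low counts in the immunoprecipitation, 257 did not and 33 had no entry. In the gradients 3228 passed, 49 did not and 52 had no entry. Genes at low levels are thus under-represented among those tested. Nothing in the labels says that libraries came from separate cultures, and the 3 lines, which differ in U2AF1 genotype, are the only replication. With line as a block in the fits, level differences between lines are taken out. The p-values thus measure how much differences between kinds of library varied from line to line.

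IP was compared with IgG to ask whether mRNAs with a 3'UTR site were recovered with U2AF1. With edgeR's quasi-likelihood test and Benjamini-Hochberg adjustment, at a threshold of 0.05, 14 of the 3039 genes rose (0.461%, where 0.224% of all genes tested rose) and 21 fell (0.691%, where 1.12% of all genes tested fell and 1.34% changed either way). The shares were small in both directions. Genes for translation made up 6 of the 14 that rose: EEF1A1, EIF2S3, EIF3F, RPL5, RPS3 and RPS3A. EEF1A1, which encodes the elongation factor that delivers charged tRNAs, stood at 23539, 23535 and 21124 CPM in IP of the WT, S34F and FS lines and at 9512, 14962 and 8479 CPM in IgG. IP was above IgG in all 3 lines, and the groups did not overlap. The difference was 0.92 on the log2 scale (SE 0.11, adjusted p = 5.71e-04, edgeR). Ribosomal protein genes without a 3'UTR site rose too, 6 of 57, beside 3 of 24 with one.

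PRPS2, which encodes an enzyme of nucleotide precursor synthesis (chrX:12809474-12842346 in the immunoprecipitation tables), had the largest increase among them. It stood at 45.1, 40.7 and 58.4 CPM in IP and at 5.92, 4.79 and 10.5 CPM in IgG, with no overlap. The log2 difference was 2.64 (SE 0.61, adjusted p = 0.0423 in edgeR's test). Its mRNA held 1 site of 13 reads in WT and 1 of 6 reads in S34F cytoplasm. CDC42, which encodes a small GTPase that steers the actin cytoskeleton, was at 114, 105 and 103 CPM in IP and at 34.1, 34.9 and 31.7 CPM in IgG, and rose with an adjusted p of 0.0258 in edgeR's test. CDC42 in IP was close to its Cytosol level of 99.6, 105 and 95.5 CPM, so IgG was the group that stood apart. HNRNPF, an hnRNP gene with 5 and 2 sites in the cytoplasmic lists, was at 183, 173 and 203 CPM in IP and at 83.4, 74.5 and 57.7 CPM in IgG, a log2 difference of 1.21 (SE 0.28, adjusted p = 0.0381 in edgeR's test). HNRNPF in Cytosol, at 147, 163 and 151 CPM, was nearer IP than IgG as well. DSTN, HIPK3, RAD23B and SCRN1 rose by 1.62, 1.49, 1.41 and 1.27 on the log2 scale, each with every IP value above every IgG value. HIPK3 in Cytosol, at 93.4, 104 and 63.1 CPM, was instead nearer its IgG values of 70.4, 81.7 and 42.2 CPM. The 8 genes with the largest increase had 0 to 5 sites in each cytoplasmic list.

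Among the genes that fell, PTPRF, a receptor tyrosine phosphatase gene (chr1:43996547-44089343), was at 559, 586 and 605 CPM in IP and at 1658, 1048 and 1381 CPM in IgG, a log2 difference of -1.38 (SE 0.19, adjusted p = 0.0011 in edgeR's test). PTK7, a pseudokinase of Wnt signalling, was at 111, 114 and 90.6 CPM in IP and at 464, 214 and 445 CPM in IgG, a log2 difference of -1.97. IP and IgG did not overlap in either gene. Cytosol, at 787, 827 and 864 CPM for PTPRF and 160, 184 and 187 CPM for PTK7, lay between them in every line. FBN2, which encodes a fibrillin of the extracellular matrix, fell by 2.37 on the log2 scale with overlapping groups. BSG, NUCB1, NCSTN and SLC2A1 fell by 1.42, 1.40, 2.04 and 1.45 on that scale. The S34F line had the lowest IgG value of the 3 lines in each of these 7 genes.

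**Figure D3:**
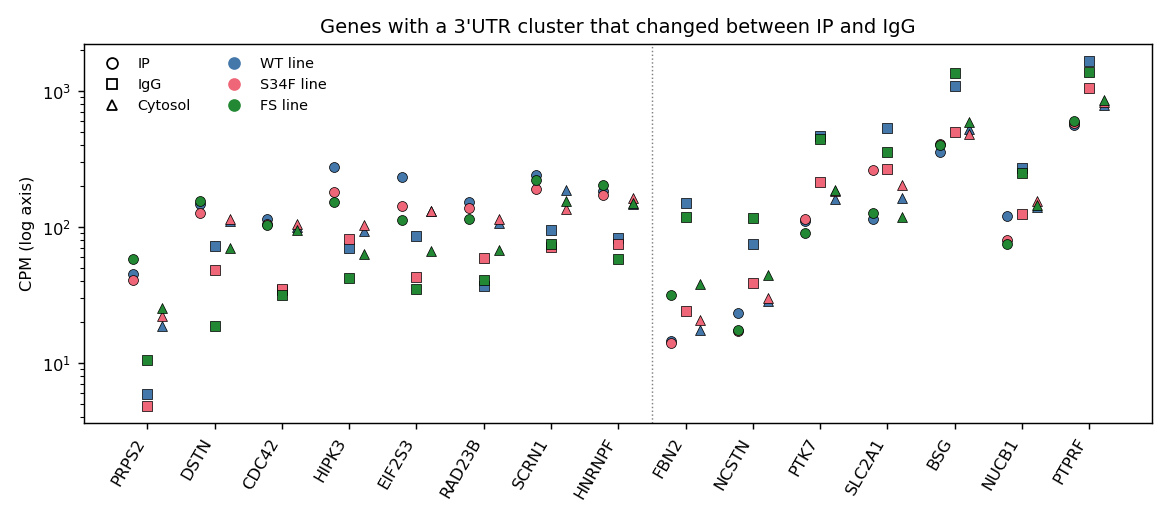
Level in CPM (log axis) of the 8 genes with a 3'UTR cluster that rose most (left of the dotted line) and 7 of those that fell most (right) between IP and IgG, for each of 9 libraries. Circles are IP, squares IgG and triangles Cytosol, and colours mark the lines. On the left the squares lie under the circles and mostly under the triangles, and on the right they lie above both in most lines.

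The genes with the most 3'UTR reads did not pass the test. SP3 stood at 88.2, 70.1 and 20.5 CPM in IP and at 70.7, 20.1 and 9.11 CPM in IgG. PANK3 stood at 19.2, 15.9 and 35.9 CPM in IP and at 2.25, 3.71 and 2.03 CPM in IgG, apart in all 3 lines, with a log2 difference of 2.91 (SE 0.97, adjusted p = 0.20 in edgeR's test). OGT stood at 43.3, 38.3 and 48.3 CPM in IP and at 73.5, 19.2 and 48.6 CPM in IgG. NPM1 was at 638, 541 and 523 CPM in IP and at 245, 450 and 263 CPM in IgG, a log2 difference of 0.71 (SE 0.21, adjusted p = 0.14 in edgeR's test). U2AF1 mRNA itself was at 46.2, 5.04 and 27.7 CPM in IP and at 50.4, 4.36 and 10.5 CPM in IgG, with overlapping groups. ATAD5 stayed at or under 5.81 CPM in all 9 libraries and was not tested.

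Over the whole set, the median difference between IP and IgG was 0.17 on the log2 scale, where that over all genes tested was 0.03. Genes with a coding cluster but no 3'UTR site in the cytoplasmic lists had a median of 0.02, and genes with no cluster in any list had -0.12. With 1, 2 to 3, and at least 4 sites in the cytoplasmic lists the medians were 0.12, 0.13 and 0.32. The median level of these groups was 24.1, 24.7 and 29.6 CPM. In quartiles of all genes by level, from low to high, the medians were 0.83, 0.50, 0.25 and -0.03 for genes with a site and 0.34, 0.07, -0.05 and -0.15 for the rest. Nearly all calls of genes with a site lay in the top quartile, 13 that rose and 19 that fell. There 1.40% of the 928 genes with a site rose and 2.05% fell, against 0.557% and 5.01% of the rest. As ratios of CPM plus 1 within each line, the median was 0.43 in WT, 0.15 in S34F and 0.41 in FS, where all genes had 0.33, 0.02 and 0.20. The calls were fewest with the WT line left out, when 1 gene rose and 1 fell. Of the 35 calls, 2 were kept without WT, 25 without S34F and 15 without FS, so each line mattered. Without the line as a replicate block, 0 rose and 2 fell. DESeq2 called 106 and 74.

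**Figure D4:**
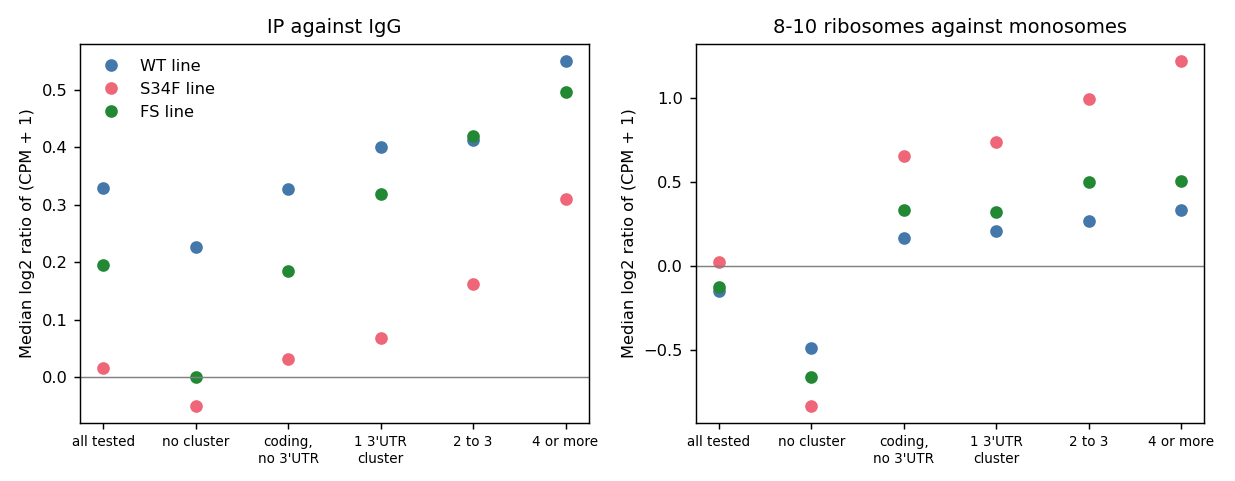
Median log2 ratio of CPM plus 1 within each line, for all genes tested, genes with no cluster, genes with coding but no 3'UTR clusters, and genes with 1, 2 to 3 or at least 4 3'UTR clusters in the cytoplasmic lists, for IP against IgG (left) and 8-10 ribosomes against monosomes (right). In each line the points for at least 4 sites stand above those for all genes tested.

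IP and IgG were each also compared with Cytosol, which share the Cytosol libraries and so are not independent. Against Cytosol, 13 genes with a site rose in IP (0.428%, where 0.491% of all genes rose) and 0 fell (where 0.0431% fell and 0.534% changed either way), by edgeR's test. At the same threshold DESeq2 called 10 that fell. An unadjusted edgeR p under 0.05, in either direction, was found for 251 of the 3039 genes with a site and for 851 of all 11612 genes tested. In IgG, 12 rose (0.395%, where 0.663% of all genes did) and 1, CDC42, fell (0.0329%, where 0.0172% fell and 0.68% changed either way). The 8 genes with the largest increase were the same in both: DONSON, ACVR2B, DBT, C15orf57, RAPGEFL1, FUBP1, BACH2 and CASC3. DONSON, a DNA replication factor gene, stood at 2153, 1575 and 2585 CPM in IP, at 5992, 2566 and 3981 CPM in IgG and at 220, 138 and 393 CPM in Cytosol. IgG was thus above IP and IP above Cytosol in every line. The levels of 3 of the others kept a nearly fixed ratio to DONSON: over the 9 libraries ACVR2B, an activin receptor gene, was at 51.1 to 54.6% of it, DBT at 21.3 to 26.0% and C15orf57 at 23.6 to 28.1%. These genes had 0 to 4 3'UTR sites per cytoplasmic list, with at most 44 reads.

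In the gradients, genes with a 3'UTR site lay more often toward the heavy end than all genes did. Between the 8-10 ribosome fraction and monosomes, 1518 of 3228 rose (47.0%, where 28.3% of all genes tested rose) and 306 fell (9.48%, where 21.6% fell and 49.9% changed either way), by edgeR's test at the same threshold. The median log2 difference was 0.73, where that of all genes tested was 0.08. Within lines the medians were 0.25 in WT, 0.92 in S34F and 0.42 in FS, where all genes tested had -0.15, 0.02 and -0.12. Genes with a coding cluster but no 3'UTR site in the cytoplasmic lists had 0.16, 0.65 and 0.33, so S34F was highest there too. Of the genes with a coding cluster but no 3'UTR site in the cytoplasmic lists, 40.6% rose and 11.2% fell, with a median of 0.60. Split by coding clusters, 51.6% of the genes with both kinds rose and 7.17% fell (median 0.83), while 36.9% of those with a 3'UTR site alone rose and 14.6% fell (median 0.42). Genes with a 3'UTR site alone thus rose less often than those with coding clusters alone, a difference that was not tested. Of genes with no cluster 14.2% rose, with a median of -1.11. Their levels differed, with medians of 44.6 CPM for genes with a 3'UTR site (47.2 with both kinds, 40.0 with a 3'UTR site alone), 29.9 for those with coding clusters alone and 5.55 for those with none. In quartiles of level from low to high, 4.86%, 48.6%, 51.4% and 47.3% of genes with a site rose, against 1.77%, 26.9%, 37.2% and 36.3% of the rest. A heavy position also depends on coding length, and its part was not tested.

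Genes with sites moved by group. All 13 tested proteasome subunit genes with a 3'UTR site rose, as did the 18 without. PSMA4, a core particle subunit gene, was at 20.3, 100.2 and 66.9 CPM in the 8-10 fraction of WT, S34F and FS and at 9.36, 13.5 and 6.99 CPM in monosomes, a log2 difference of 2.59 (SE 0.45, adjusted p = 1.08e-04 in edgeR's test). Of 31 SR and hnRNP genes with a site 20 rose and 1, PTBP2, fell (median 1.503, beside 0.08 over all genes tested, of which 28.3% rose), and 5 of 5 without a site rose (median 1.36). HNRNPD, which encodes the AU-rich element binding protein AUF1, was at 43.1, 91.2 and 97.0 CPM in the heavy fraction and at 5.82, 7.67 and 11.5 CPM in monosomes, a log2 difference of 3.32 (SE 0.36, adjusted p = 1.67e-06 in edgeR's test). HNRNPA2B1, HNRNPK and HNRNPU rose by 1.85, 1.79 and 1.97 on the log2 scale. Of 27 cell cycle genes with a site 20 rose and 1, E2F1, fell (median 1.25), and of 9 without a site 6 rose (median 1.33). CDK6, the kinase of the G1 phase, was at 246, 536 and 671 CPM in the heavy fraction and at 56.9, 65.2 and 89.0 CPM in monosomes, and cyclin D2 (CCND2) rose by 2.11 on the log2 scale. The groups of PSMA4, HNRNPD and CDK6 did not overlap.

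Ribosomal protein genes lay at the light end. Of 24 with a 3'UTR site 13 fell and 0 rose, and of 59 without a site 28 fell and 2 rose. RPL37A was at 162, 117 and 77.3 CPM in the heavy fraction and at 1015, 909 and 679 CPM in monosomes, a log2 difference of -2.77 (SE 0.45, adjusted p = 7.43e-05 in edgeR's test). Its mRNA is among the shortest of those named, at 418 bases in the immunoprecipitation tables. EEF1A1 fell by 1.93 on the log2 scale, from 20958, 19460 and 39815 CPM in monosomes to 4387, 8279 and 5961 CPM. Of 103 ZNF zinc finger genes with a site 16 rose and 26 fell (median -0.15), where 21.6% of all genes tested fell. Of 384 ZNF genes without a site 23 rose and 121 fell (median -0.49). OGT, whose site was found in all 3 lists, fell as well, at 35.0, 119 and 46.1 CPM in the heavy fraction and 260, 264 and 229 CPM in monosomes, a log2 difference of -1.87 (SE 0.44, adjusted p = 0.0013 in edgeR's test). SLC25A23, HCN2 and WSB2 fell by 3.18, 3.68 and 2.87 on that scale with groups apart. TRIM71 and ESPNL, which passed as decreases, stayed at or under 2.22 CPM in the 6 libraries, and no fold is given.

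Other genes with many sites varied. NUCKS1 was at 252, 643 and 726 CPM in the heavy fraction and at 84.1, 95.9 and 192 CPM in monosomes, a log2 difference of 2.26 (SE 0.35, adjusted p = 4.54e-05 in edgeR's test). PANK3, EIF5 and SSU72 rose by 1.54, 1.52 and 1.14 on the log2 scale. KLHL15, with 20 sites in S34F cytoplasm, was at 6.90, 17.9 and 19.7 CPM in the heavy fraction and at 3.77, 8.28 and 13.7 CPM in monosomes, higher in each line, and rose by 0.98 on the log2 scale although the groups overlap. HNRNPA1 was at 21.1, 1.54 and 53.9 CPM against 11.5, 22.8 and 38.6 CPM, overlapping too, and did not pass the test. U2AF1 and U2AF2 rose by 1.73 and 1.47 on the log2 scale, with groups apart in both.

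Position in the gradient was also set side by side between lines, with 1 gradient per line and so no test. A ribosome index was the mean over the 8 fractions, weighted by CPM, for 9504 genes with at least 500 counts in every gradient. CPM removes the RNA amount of each fraction, so the index gives relative position. Over 2726 genes with a site in either cytoplasmic list the index was higher in S34F than in WT by a median of 0.29, and 71.9% of them were higher, where all 9504 genes had 0.08 and 58.2%. For 1036 genes with a site in both lists the values were 0.41 and 77.5%. Genes with a site in WT but not S34F cytoplasm had 0.13, those in S34F but not WT cytoplasm 0.29, those in chromatin alone 0.16, and those with coding clusters but no 3'UTR site in the cytoplasmic lists 0.11. Between FS and WT the median was 0.12 for genes with a site and 0.09 for all genes, below the S34F value for the former and slightly above it for the latter.

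Genes with a site in both cytoplasmic lists had the highest median of the sets compared in every quartile of level. Their median differences between S34F and WT were 0.63, 0.67, 0.40 and 0.22 from the lowest to the highest quartile. Genes with coding clusters but no 3'UTR site in the cytoplasmic lists had 0.43, 0.19, 0.07 and -0.06. All genes without a cytoplasmic 3'UTR site, these and the genes with a site in chromatin alone included, had 0.10, 0.06, -0.01 and -0.05. In the top quartile the coding set was thus not above that larger set. With 1, 2 to 3 and at least 4 sites the median was 0.19, 0.31 and 0.49, while the median level went from 50.6 to 52.8 and 74.9 CPM and the median mRNA length from 3643 to 3778 and 4433 bases. EIF5 had an index of 5.05 in WT, 6.23 in S34F and 5.39 in FS. SP3 had 4.48, 5.53 and 4.71, PANK3 4.66, 5.66 and 4.54, and NPM1 4.43, 5.82 and 4.58. S34F was the highest of the 3 lines in each of these 4 genes. GLUL, the glutamine synthetase gene with 4 sites in each cytoplasmic list, went the other way at 5.25, 4.79 and 4.97, and SSU72 was level at 5.07, 5.01 and 5.09. Line and gradient run cannot be told apart with 1 gradient each.

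**Figure D5:**
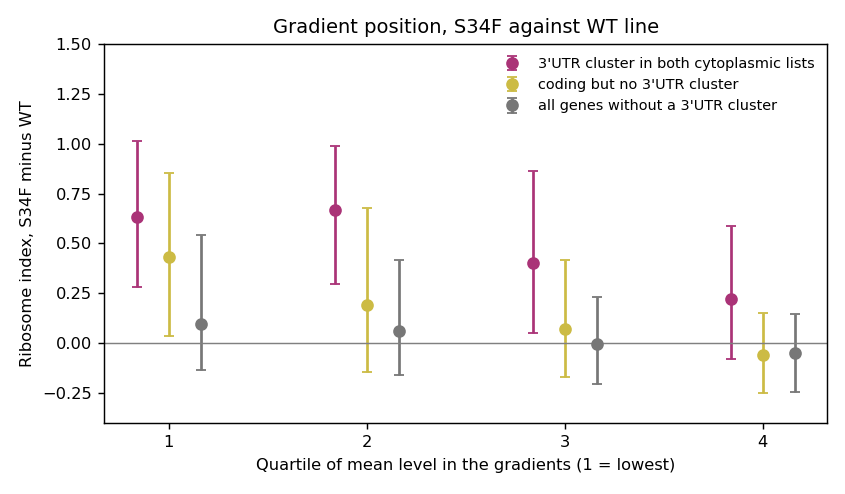
Median difference of the ribosome index between the S34F and WT lines (points) with the lower to upper quartile of genes as bars, by quartile of mean level in the gradients. Genes with a 3'UTR cluster in both cytoplasmic lists stand at 0.63, 0.67, 0.40 and 0.22, above genes with coding but no 3'UTR clusters in each quartile.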

How the data were processed

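Per the file headers, each PAR-CLIP cluster comes with a count of its reads and with a T-to-C fraction, whose denominator the authors do not state. Replicates were pooled per the series design text. Gene values of the immunoprecipitation and the gradients were deposited by the authors in the form of expected counts, of which 26.3% and 57.5% were not whole. The RPKM column that the authors deposited beside the immunoprecipitation counts was not tested. TopHat is named in the submitters' processing notes, while cluster caller, counting tool, strand use and genome build are not given in the sources used here.

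Expected counts were rounded and fitted with edgeR 4.0.16 (limma 3.58.1, R 4.3.3): filterByExpr, TMM scaling, line as block, glmQLFit and glmQLFTest, Benjamini-Hochberg adjustment over all 11612 and 15945 genes kept. The SE of a log2 difference was its size divided by the square root of F. The fits used all 9 and all 24 libraries. Same-line libraries are paired by their cell line. Correlations of their deviations had a median of 0.064 over 9 pairs in the immunoprecipitation and 0.35 over 84 pairs in the gradients. In the ribosome index the pooled fraction had weight 9. Per-line ratios used a pseudocount of 1 CPM.

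The fits were tested on simulated data. For IP against IgG (11612 genes), 10 of 66 genes changed by 1 on the log2 scale, 29 of 66 changed by 2 and 38 of 68 changed by 4 were recovered, and 15 of 92 calls were false, more than the 5% aimed at. For 8-10 ribosomes against monosomes (15945 genes) the numbers were 3 of 67, 42 of 63 and 60 of 70, with 3 of 108 calls false. A prior version of this simulation, with 1 dispersion for all genes and no change of 4, recovered none of the changed genes for IP against IgG and about the same shares as above in the gradients, and gene-wise dispersions replaced it.

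Text names the 8 genes per direction with the largest change among those called, U2AF1, U2AF2 and NPM1, genes of the 6 sites with most reads and the 5 genes with most sites per list, shared sites, and list members that were called or had most 3'UTR reads; some items are not reported here. Members and lists were chosen with earlier results of these data known. The definition of the AG after a pyrimidine run, the bases around it, the distances to the gene end, level quartiles, site-number groups and the trimming of the ribosomal list (kinases and pseudogenes dropped) were chosen after seeing the data. Alternatives were DESeq2 1.42.0, RLE scaling, no filter, no replicate block, each line left out, other fractions and stricter clusters. Of 21603 polysome entries, 28 had names turned into dates.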

Additional observations from a re-analysis of the deposited data

Results flagged for a closer look

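In 4 genes named for their 3'UTR sites or lists, the WT and S34F lines differed by at least 2-fold in opposite directions, with 1 library per group and line, so the difference was not tested. TMEM183A had an IP to Cytosol log2 difference of -1.76 in the WT line (0.234 against 3.17 CPM) and 2.21 in the S34F line (6.58 against 0.642 CPM). KLHL15 had an IgG to Cytosol log2 difference of 1.39 in WT (14.1 against 4.75 CPM) and -1.81 in S34F, where IgG was listed at 0 and Cytosol at 2.50 CPM. ZNF507 had an IgG to Cytosol log2 difference of 1.34 in WT and -1.09 in S34F. QKI, which encodes an RNA-binding protein of splicing and mRNA stability, had an IP to IgG log2 difference of -1.22 in WT (19.9 against 47.6 CPM) and 1.05 in S34F (18.2 against 8.28 CPM). These are log2 ratios of CPM plus 1. The levels of TMEM183A and KLHL15 were low in all of these libraries. The 2-fold limit was chosen after seeing the data.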

How the results depend on the processing

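Of the summary values under alternatives 91 stayed within their limits and 68 moved. The other values were those of single genes, set medians and motif shares of coding clusters. Of these 653 stayed, 111 lost and 2 gained their call, 12 moved and 8 reversed. Only single genes could lose or gain a call or reverse, and only medians and shares could move. The cause was not tested. All are percents of tested genes with a site unless said otherwise. For IP against IgG, the share that rose was 3.26 with DESeq2 (106 genes), 0.985 without the filter (32), 0 without the replicate block (0 genes) and 0.286 for genes of the chromatin list, and 0.0332 to 0.227 with 1 line left out. The share that fell was 2.28 (74), 1.45 (47) and 0.0658 (2) under the first 3 of these, and 0.0332 to 1.01 with 1 line left out. Of the 35 calls, DESeq2 kept 35, RLE scaling 33, and leaving out the WT, S34F or FS line 2, 25 or 15. For IP against Cytosol the rise was 1.05 with DESeq2, 0.677 without the filter and 0.230 without the replicate block, and the fall 0.308 with DESeq2 and 0.215 without the filter. For IgG against Cytosol the rise was 1.14 with DESeq2, 0.954 without the filter and 0.291 to 0.682 with 1 line left out. The fall was 0.615 with DESeq2, 0.0615 without the filter, 0 with RLE scaling, without the replicate block and for the chromatin list, 0.0516 for clusters of at least 10 reads, 0.0594 for those with at least 3 conversion positions, and 0 to 0.0325 with 1 line left out. For 8-10 ribosomes against monosomes 30.1 rose without the replicate block (970 genes), 6.15 fell without the filter and 5.72 to 7.54 fell with 1 line left out. Dropping the filter shifted the median of all genes by 0.26 on the log2 scale in the gradients. Fitting without the block shifted it by 0.12 (IP against Cytosol) and 0.15 (IgG against Cytosol), and leaving out the S34F line by 0.11 and 0.10.

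Single genes that reversed were, for IP against IgG with 1 line left out, OGT (-0.60 to 0.29, reversed without WT), QKI (-1.17 to 0.070, reversed without WT) and U2AF1 (-0.18 to 0.73, reversed without FS). U2AF2 reversed for IgG against Cytosol with DESeq2 (0.013), with RLE scaling (0.012) and without the FS line (-0.32 to 0.24). With fractions 5 to 8-10 against monosomes and 2 ribosomes, NPM1 was at -0.046 and PSMD11 at -0.035.

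The 3'UTR percent of clusters was 16.5, 15.8, 18.1 and 17.0 in WT cytoplasm for at least 10 reads, 20 reads, 3 conversion positions and 3 distinct reads. In S34F cytoplasm it was 18.7 (10 reads), 20.5 (3 positions) and 18.7 (3 distinct reads), and in chromatin 5.39 (20 reads), 4.78 (3 positions) and 5.41 (3 distinct reads). Overlap of WT with S34F cytoplasm was 13.8% (3 positions), 14.7% (3 distinct reads) and 7.86% (reciprocal 50%). Overlap with chromatin was 9.91%, 11.2%, 6.12% and 4.48% in WT and 11.97%, 15.7%, 6.60% and 5.16% in S34F cytoplasm (10 reads, 20 reads, 3 positions, reciprocal 50%). A run of 5 T was in 19.9%, 15.5% and 19.5% of WT and 21.0%, 13.9% and 18.6% of S34F sites (10 reads, 20 to 30 bases, 3 distinct reads), and in 11.1% and 13.6% of chromatin sites (the last 2). The AG after a pyrimidine run was in 20.1%, 13.8% and 19.2% of WT, 21.6%, 12.8% and 19.4% of S34F, and 13.1% and 18.7% of chromatin sites in the same order. The distinct-read subset was chosen after seeing the data. A count of 0 allows up to 1.16 CPM in the shallowest immunoprecipitation library, which limits genes such as ATAD5 and KLHL15.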
